A study of Mus musculus with 2 samples.

Results

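Mmp13-positive cells were examined in 2 cultures of myeloid-derived suppressor cells (MDSC), a mixed population of immature granulocytic and monocytic cells grown from mouse bone marrow. The marrow came from female C57BL/6 mice aged 10 weeks, and both cultures were fed for 4 days with the growth factors IL-6 and GM-CSF at 50 ng/mL apiece. The DAB culture also contained 1.5 µM dabrafenib, an inhibitor of the BRAF kinase, and the DMSO control the same volume of its solvent. The number of mice behind each culture was not stated in the labels or methods used here. Each condition was read as 1 droplet-based single-cell RNA library, so no difference between conditions has a replicate check and no test is given. All intervals are 95% intervals that cover counting error only. Of 9855 DMSO and 11631 DAB barcodes, with 106792967 and 165506902 unique molecular identifiers (UMIs, each a counted RNA molecule), 9621 and 11414 held at least 1000 UMIs with at most 10% of them mitochondrial. A cell was counted as Mmp13-positive when it held at least 2 Mmp13 UMIs and stayed under 3 limits per 10000 UMIs, namely 30 for the MHC class II genes H2-Aa, H2-Ab1 and H2-Eb1, 10 for the complement genes C1qa, C1qb and C1qc, and 20 for the secondary granule genes Ltf and Ngp. The rule found 697 of 21035 cells, 124 in DMSO and 573 in DAB. The cells were thus chosen by their Mmp13, MHC class II, complement and granule UMIs, so Mmp13 and the limiting genes are described below and are not results.

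Mmp13 encodes collagenase 3, a secreted metalloproteinase that cuts fibrillar collagen and is known from cartilage, bone and wound tissue. Granulocytes carry other metalloproteinases, among them the collagenase Mmp8 and the gelatinase Mmp9, while macrophages are known for Mmp12, an elastase. Cxcl2 and Cxcl3 are chemokines that draw neutrophils through the receptor Cxcr2, and Gpnmb is a membrane glycoprotein of lipid-loaded and lysosome-rich macrophages. S100a8 and S100a9 form calprotectin, which fills the cytosol of neutrophils and their precursors and of some monocytes.

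Mmp13 lies on chromosome 9 at 7272514 to 7283331 of GRCm38, and Mmp12 follows on the same chromosome at 7344381 to 7369499. Cxcl3 and Cxcl2 also share a chromosome, at 90786103 to 90789600 and 90903871 to 90905938 of chromosome 5. The 250 bases before the RefSeq start of each gene are shown because Mmp13 selects the cells and the chemokines are among the genes that name them. They lie at chr9:7272264-7272513, chr5:90785851-90786100 and chr5:90903649-90903898 on the plus strand. Capitals mark AP-1 letters (TGANTCA) in Mmp13 and NF-kB letters (GGG, any 2 bases, then TTTCC) in the chemokines, each searched on both strands.
Mmp13: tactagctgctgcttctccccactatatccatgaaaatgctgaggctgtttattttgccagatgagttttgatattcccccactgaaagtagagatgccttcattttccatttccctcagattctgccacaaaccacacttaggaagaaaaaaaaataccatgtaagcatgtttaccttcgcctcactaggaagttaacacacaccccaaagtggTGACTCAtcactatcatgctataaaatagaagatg
Cxcl3: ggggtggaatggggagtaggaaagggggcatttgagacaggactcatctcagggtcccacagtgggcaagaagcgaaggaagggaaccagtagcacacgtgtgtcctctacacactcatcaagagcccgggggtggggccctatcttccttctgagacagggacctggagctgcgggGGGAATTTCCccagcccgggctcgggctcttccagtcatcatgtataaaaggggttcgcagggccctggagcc
Cxcl2: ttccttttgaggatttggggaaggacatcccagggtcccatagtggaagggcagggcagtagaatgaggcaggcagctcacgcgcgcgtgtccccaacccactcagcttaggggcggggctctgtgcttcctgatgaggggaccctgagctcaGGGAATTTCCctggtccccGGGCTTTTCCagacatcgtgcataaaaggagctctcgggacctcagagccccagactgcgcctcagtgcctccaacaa
The AP-1 letters began 35 bases before the Mmp13 start, and 6.75% of 32841 mouse promoters of this length held such letters. The NF-kB letters began 73 bases before the start of Cxcl3, and 97 and 78 bases before that of Cxcl2, and 1.41% of promoters held them. A match describes letters in the window and does not show that a factor bound there. The transcripts of Cxcl3 and Cxcl2 shared 161 stretches of 31 bases, 4.56% of those of Cxcl3 and 7.59% of those of Cxcl2. Reads inside such stretches cannot be assigned to either gene by sequence, and their share was not measured. Mmp13 shared none with Mmp12 or Mmp8.

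The first question was how common Mmp13-positive cells were in each culture. Their share was 1.29% in DMSO (interval 1.07 to 1.53) and 5.02% in DAB (4.63 to 5.44), 3.9-fold higher in DAB (3.20 to 4.77). Most of the Mmp13 in the cultures was in these cells, which held 1119 of 1454 Mmp13 UMIs in DMSO and 4402 of 5456 in DAB. Their median UMI count was 11648 in DMSO and 10493 in DAB, against 8016.5 and 9548.5 in cells inside the same limits with 0 Mmp13 UMIs, which serve as the comparison cells below. The 8193 DMSO and 10031 DAB cells with at least 3000 UMIs, counted at that depth, gave shares of 0.610% and 2.70%, a 4.43-fold difference. The limits on the other genes were taken at full depth there. In a single library per condition, a larger number of such cells and more Mmp13 RNA per cell that lifts cells over the threshold cannot be fully told apart.

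The Mmp13 level within the cells was alike in both libraries, with a median of 4 UMIs per cell in DMSO and 5 in DAB and a highest value of 173 and 76. The DMSO cell with 173 was scored as a doublet and held 15.5% of the Mmp13 UMIs of these cells. The next DMSO cell held 49. Just outside the threshold, 90 DMSO and 316 DAB cells held 1 Mmp13 UMI, and just inside it 34 and 129 cells held 2. Another 31 DMSO and 92 DAB cells held at least 2 Mmp13 UMIs but exceeded a limit. That on Ltf and Ngp was exceeded by 12 and 73 of them, that on the complement genes by 12 and 6 and that on MHC class II by 7 and 14. Among B cells, which should lack Mmp13 and were marked by at least 5 UMIs summed over 5 B cell genes, among them Cd79a, Cd79b, Ms4a1 and Ebf1, 0 of 132 in DMSO held 2 Mmp13 UMIs, which allows a share of up to 2.27% (3 counts of the total). In DAB 3 of 211 did, or 1.42%.

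**Figure D1:**
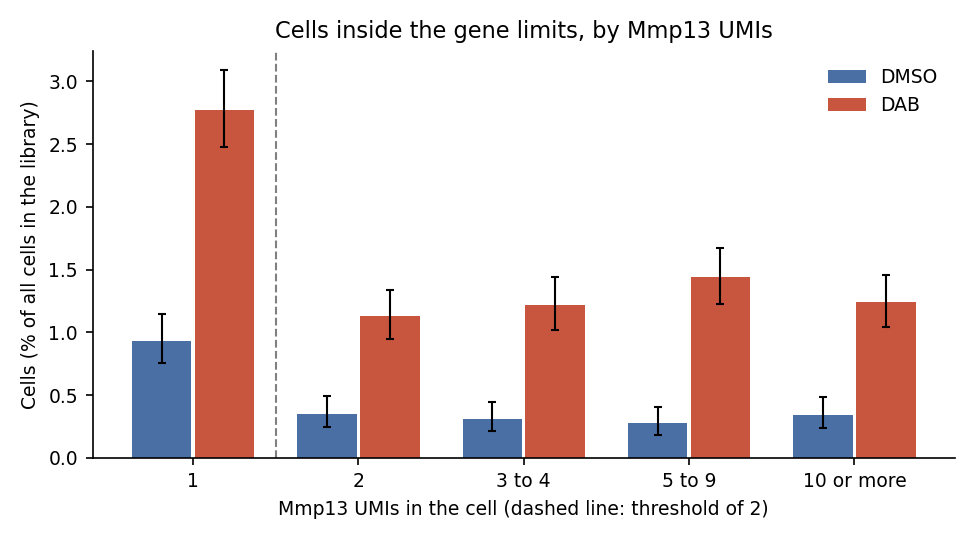
Share of all cells of a library (y axis, %) that lay inside the gene limits and held the number of Mmp13 UMIs on the x axis, for DMSO (blue) and DAB (red), with exact binomial 95% intervals. The dashed line marks the threshold of 2 UMIs, and in every bin from 2 upward the DAB share (1.13% to 1.44%) lay above the DMSO share (0.281% to 0.353%).

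The working description of these cells as granulocyte-like was not borne out by most DMSO cells, so they are called by Mmp13 here. For 12 listed granulocyte markers, the summed level was 71084 CPM (UMI counts divided by the summed UMIs of the group, on the usual CPM scale) in DAB cells against 33037 in DAB comparison cells. In DMSO it was 16923 against 26117, so the Mmp13-positive cells lay below their comparison cells there. S100a9 was the most abundant of the 12 in both libraries, at 8153 CPM in DMSO and 32348 in DAB, and S100a8 followed at 7589 and 31921. Without these 2 genes the sum was 1181 CPM in DMSO against 1510 in comparison cells, and 6815 in DAB against 2315, where Retnlg alone made up 4891 and 698. Of the 12 genes, 4 lay above comparison cells in DMSO and 8 in DAB, while of all 9057 genes compared 3329 did in DMSO and 3061 in DAB. Csf3r, the receptor for G-CSF and a defining gene of granulocytes, was low in both, at 21.2 CPM in DMSO and 25.7 in DAB, against 66.6 and 33.3 in comparison cells. Csf1r, the receptor for the macrophage growth factor, was at 180 and 137 CPM, close to 171 and 131 in comparison cells.

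S100a8 and S100a9 divided the cells. Their summed level per 10000 UMIs had a median of 2.66 in DMSO, with 0.783 and 137 at the quartiles, and a median of 571 in DAB, with 100 and 1292 at the quartiles. With 100 per 10000 as the dividing line, chosen after the values were seen, the S100a8/S100a9-high cells numbered 32 of 124 in DMSO (25.8%, 18.4 to 34.4) and 430 of 573 in DAB (75%, 71.3 to 78.5). This is a range and not a cell type, and 7 DMSO and 71 DAB cells lay between 50 and 200. Among comparison cells the high share was 41.7% in DMSO and 49.7% in DAB, so the Mmp13-positive cells sat on opposite sides of their comparison cells in the 2 libraries.

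Mmp12 was the counterpart. In DMSO, 74 of 124 Mmp13-positive cells (59.7%) held at least 20 Mmp12 UMIs per 10000 without high S100a8 and S100a9, and 29 (23.4%) were high in the S100 genes alone. In DAB the order was turned, with 52 of 573 (9.08%) rich in Mmp12 alone and 416 (72.6%) in the S100 genes alone. Few cells were rich in both, 3 in DMSO and 14 in DAB, and 18 and 91 in neither.

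**Figure D2:**
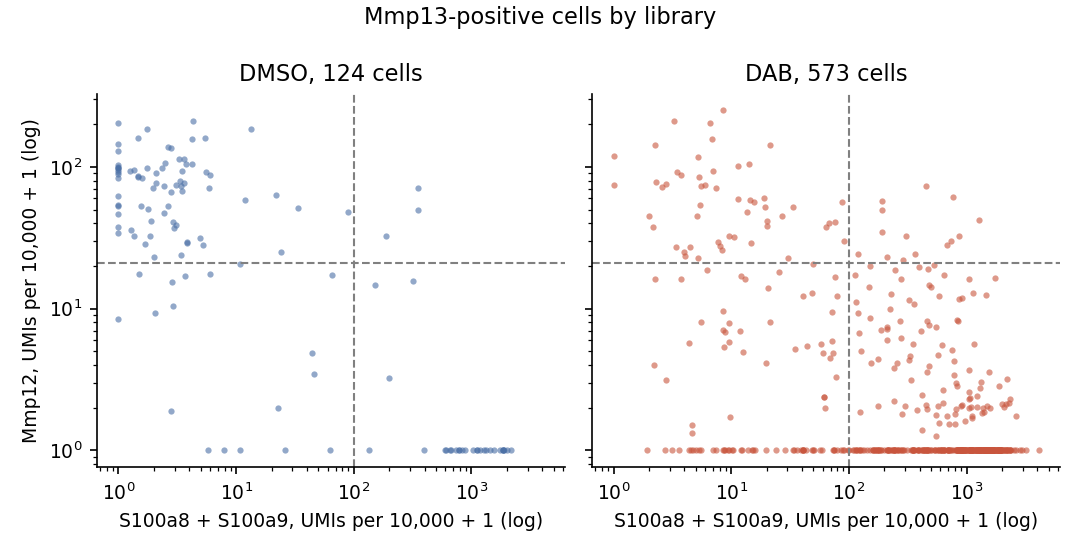
Each point is a Mmp13-positive cell, placed by S100a8 plus S100a9 (x axis) and Mmp12 (y axis), both in UMIs per 10000 plus 1 on log scales, with the dividing lines of 100 and 20 dashed. The 124 DMSO cells gather mainly at high Mmp12 and low S100 values, and the 573 DAB cells mainly along the bottom right.

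Stated as shares of all cells, the S100a8/S100a9-high Mmp13-positive cells were at 0.333% in DMSO and 3.77% in DAB, 11.3-fold (7.90 to 16.8). The S100a8/S100a9-low ones were at 0.956% and 1.25%, 1.31-fold (1.0 to 1.72). Over the same step the comparison cells high in S100a8 and S100a9 were at 29.6% and 38.9%, 1.31-fold. Cells with Mmp12 of at least 20 per 10000 and no Mmp13 were at 7.22% and 4.55%, 0.629-fold. Cells with Ccl3 plus Ccl4 of at least 20 per 10000 and no Mmp13 were at 2.59% and 6.55%, 2.53-fold. Cells with at least 2 Csf3r UMIs and neither Ly6g nor Mmp13 were at 9.24% and 6.94%, 0.751-fold. Cells that met several of these 3 rules, 83 in DMSO and 148 in DAB, were left out of them.

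The 20 nearest cells in a map of 2000 variable genes, built without the 9 genes of the rule, followed the same division. Genes that set the division or the groups counted below, among them S100a8, S100a9 and Mmp12, were not left out. The neighbours are thus no separate check of the division. In DMSO, 34.4% of the neighbours of Mmp13-positive cells were Mmp12-rich cells, which were 7.22% of all cells, and 13.1% were other Mmp13-positive cells, which were 1.29%. In DAB 5.58% were Mmp12-rich cells, near their share of 4.55%, and 26.9% were Mmp13-positive. Around S100a8/S100a9-low cells Mmp12-rich neighbours were at 44.6% in DMSO and 15.1% in DAB, and around high cells at 5.00% and 2.41%. Neighbours rich in Ccl3 and Ccl4 made up 6.91% in DAB, near their share of 6.55%. Csf3r-positive neighbours were at 1.45% in DMSO and 1.83% in DAB, below their shares of 9.24% and 6.94%. These figures describe the map and carry no test.

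Counted per cell at 3000 UMIs, 11.1% of 117 DMSO cells held a UMI of Csf3r, Cxcr2, Ly6g or Retnlg alone, 71.8% a UMI of Csf1r, Adgre1, Trem2 or Gpnmb alone and 12.0% UMIs of both kinds. Of 550 DAB cells the shares were 28.4%, 20.9% and 47.8%. Comparison cells held both kinds in 26.3% (DMSO) and 29.6% (DAB). B cells, read as background, held both in 1.01% and 5.62%, a granulocyte gene alone in 4.04% and 8.43%, and a macrophage gene alone in 28.3% and 16.9%. Adgre1, a surface protein of macrophages, was at this background in DAB, seen in 16.9% of Mmp13-positive and 16.3% of B cells. Csf1r (33.8% against 3.93%) and Trem2, a lipid receptor of macrophages (18% against 2.25%), were not. Of the Mmp13-positive cells 8.87% in DMSO and 15.2% in DAB were among those with the highest simulated-doublet scores, against 7.70% and 9.13% of all cells, and they were kept. The part that doublets play in the cells with both kinds of gene was not tested.

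Retnlg and Ly6g lay above the comparison cells in both libraries, while S100a8 and S100a9 lay below them in DMSO. Retnlg encodes resistin-like gamma, a product of marrow granulocytes, and stood at 402 CPM in DMSO Mmp13-positive cells and 4891 in DAB ones. The comparison cells had 270 and 698. Ly6g, the surface protein that defines mouse granulocytes, stood at 122 and 309 CPM, against 61.1 and 63.1 in comparison cells. At 3000 UMIs per cell, Ly6g was seen in 17.1% of DMSO and 33.6% of DAB Mmp13-positive cells (24.2% and 46.4% at full depth), in 10.9% and 7.17% of comparison cells and in 1.01% and 4.49% of B cells. In DMSO both came mainly from the 32 S100a8/S100a9-high cells, which held 210 UMIs of Ly6g and 600 of Retnlg. The 92 low cells held 3 and 102. Within the S100a8/S100a9-high cells the order between libraries turned for Ly6g, at 645 CPM in DMSO and 378 in DAB, and held for Retnlg, at 1843 and 6247. Ly6g shared 1.98% of its 31-base stretches with Ly6c2 and Retnlg 5.51% with Retnla.

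Ranked by the ratio in the library where it was smaller, Cxcl3 came first among the genes higher in Mmp13-positive cells. Cxcl2, Wfdc17, Ccl3 and Ccl4 followed, of which Wfdc17 is not a chemokine. The place of Cxcl2 rested on 2 DMSO cells, without which its log2 ratio there was -0.27. Of 9057 genes compared within each library, 32 (0.353%) were at least 2-fold higher in Mmp13-positive than in comparison cells in both, and 194 (2.14%) at least 2-fold lower in both. In DMSO 211 genes and in DAB 93 were at least 2-fold higher, and 20 were 2-fold apart in opposite directions. The rule that selected Mmp13 also shapes every gene that varies with it, so the profile is a description.

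Cxcl3 was the gene with the largest ratio in the weaker of the 2 libraries. It stood at 1139 CPM (1090 to 1191) in DMSO Mmp13-positive cells and 6488 (6430 to 6546) in DAB ones, with 311 and 1836 in comparison cells, log2 ratios of 1.88 and 1.82. Per cell, the median was 0.537 per 10000 UMIs in DMSO with a highest value of 127, and 49.2 in DAB with a highest value of 526. Any Cxcl3 at all was read in 66 of the 124 DMSO cells, and in DAB in 541 of 573. At 3000 UMIs, 42.7% of DMSO and 90.2% of DAB Mmp13-positive cells had a Cxcl3 UMI (53.2% and 94.4% at full depth). In B cells the shares were 2.02% and 18.5%, a background that was itself higher in DAB, with median depths of 4492.5 and 5760 UMIs. The difference between libraries was as large without Mmp13, with a log2 ratio of DAB over DMSO of 2.51 in Mmp13-positive and 2.56 in comparison cells.

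Cxcl2 had 544 CPM in DMSO cells and 1982 in DAB cells, against 160 and 559 in comparison cells, log2 ratios of 1.76 and 1.83. The DMSO value rested on 2 cells, which held 76.2% of its UMIs. The first of them, scored as a doublet, held 626. Without both, DMSO Mmp13-positive cells were at 133 CPM and below their comparison cells, with a log2 ratio of -0.27. In DAB the 2 highest cells held 2.66% of Cxcl2, and its ratio was 1.79 without them. At 3000 UMIs, the share of cells with Cxcl2 was 22.2% in DMSO and 85.5% in DAB (36.3% and 92.7% at full depth), against 21.2% and 49.7% of comparison cells and 3.03% and 13.5% of B cells.

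Across cells inside the limits in DAB, Cxcl3 was higher in each bin with more Mmp13, at 1836, 3800, 4354, 5020, 6855 and 9909 CPM for 0, 1, 2, 3 to 4, 5 to 9 and at least 10 Mmp13 UMIs. Retnlg followed the same order, from 698 to 6261, and Ly6g did so except between 1 and 2 UMIs, at 259 and 205. In DMSO the order belonged to other genes. Mmp12 was at 1122, 2682, 3423, 4508, 6355 and 7603 CPM over these bins, and the share of S100a8/S100a9-high cells was 41.7%, 60%, 41.2%, 40%, 11.1% and 9.09%. In DAB that share stayed between 73.0% and 78.7% in the bins from 2 UMIs upward. The median depth was 8016.5, 8183.5, 10129.5, 9414.5, 12271 and 16131 UMIs over the DMSO bins and between 9548.5 and 11726.5 in DAB, and Mmp12-rich cells without Mmp13 had a median of 17644 in DMSO. The part of depth in the DMSO order was not tested. Bins are not independent of the rule, and no test is given for these orders.

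Ccl3 and Ccl4, which attract monocytes and T cells, were the next chemokines. Ccl3 was at 455 and 565 CPM and Ccl4 at 560 and 585, above the comparison cells in both libraries, with log2 ratios of 1.22 and 1.27 for Ccl3 and 1.86 and 1.15 for Ccl4. Both lay well under the cells chosen for these 2 genes, where Ccl3 was at 3627 and 2593. Cxcl3 was on the other side of that comparison, at 1139 and 6488 in Mmp13-positive against 510 and 4588 in Ccl3/Ccl4-rich cells, while Cxcl2 was lower than there in both libraries, at 544 and 1982 against 1033 and 2194. Ccl6, a chemokine of myeloid cells and the most abundant of the family here, was at 6541 in DMSO and 17081 in DAB, against 6224 and 8360 in comparison cells.

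Ccl2, which attracts monocytes and is among the genes that name the cells, differed little from comparison cells in DAB. It stood at 43.0 and 128 CPM against 20.8 and 117 in comparison cells, log2 ratios of 1.04 and 0.12. With 3000 UMIs per cell, Ccl2 was read in 7.69% (DMSO) and 8.18% (DAB) of Mmp13-positive cells, and in 2.22% and 9.63% of comparison cells. At full depth the Mmp13-positive shares were 16.1% and 14%, and B cells held Ccl2 in 0 of 99 and 1 of 178 cells with 3000 UMIs, the former allowing up to 3.03%. Of 13 genes of the CC list, 9 could be compared with the comparison cells in DMSO and 10 in DAB, with 8 and 6 above 0 and medians of 1.22 and 0.58 on the log2 scale, while the medians of all genes were -0.14 and -0.13. Ccl5 was in effect found in a single cell of each library, which held 99.3% of its UMIs in DMSO and 97.8% in DAB.

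**Figure D3:**
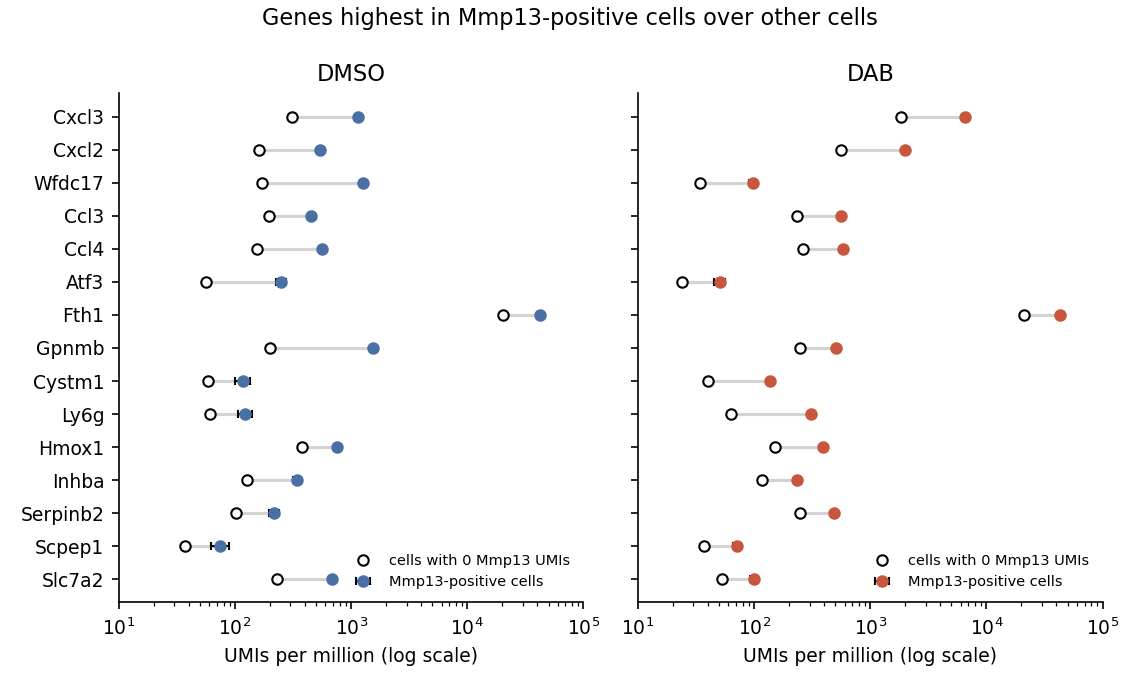
CPM (x axis, log scale) in Mmp13-positive cells (filled, with exact Poisson 95% intervals) and in cells inside the limits with 0 Mmp13 UMIs (open), for the 15 genes with the largest ratio in the weaker library. Cxcl3 leads, from 311 to 1139 in DMSO and from 1836 to 6488 in DAB, and Fth1 lies highest in both.

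Genes of iron and oxidative stress handling were among the 15. Fth1, the heavy chain of the iron store ferritin, was at 42020 and 43225 CPM, against 20150 and 20995 in comparison cells. Hmox1, heme oxygenase, was at 756 and 395, against 379 and 150. Of 12 genes of the NRF2 pathway, the antioxidant program to which both belong, 11 were above comparison cells in DMSO and 12 in DAB, with median log2 ratios of 0.65 and 0.70, beside 3329 and 3061 of all 9057 genes. Slc7a11, which imports cystine for glutathione synthesis, gave 0.89 and 1.21. Prdx1, a peroxidase, gave 2.00 in DMSO and 0.41 in DAB.

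Gpnmb had 1553 CPM in DMSO cells and 510 in DAB cells, against 202 and 249, log2 ratios of 2.94 and 1.04. It was seen at 3000 UMIs in 47.9% and 34.7% of Mmp13-positive cells (58.1% and 47.5% at full depth), 14.8% and 20% of comparison cells and 5.05% and 4.49% of B cells. Spp1, osteopontin, was at 10532 and 5475 against 2816 and 3608. The 18 genes of lipid handling and the lysosome, which include both, had median log2 ratios to comparison cells of 0.96 in DMSO, with 15 above 0, and 0.37 in DAB, with 15 of 17 above 0, beside 3329 and 3061 of all 9057 genes. Inhba, a subunit of activin, gave 1.44 and 0.99, and Serpinb2, an inhibitor of plasminogen activators, 1.08 and 0.97. Atf3, a stress-induced transcription factor, gave 2.16 and 1.08, and Slc7a2, a carrier of arginine, 1.57 and 0.93.

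Other metalloproteinases did not form a common pattern. Of 11 genes of the list of metalloproteinases and inhibitors, 7 lay above comparison cells in DMSO and 6 in DAB. Of all 9057 genes, 3329 and 3061 did. Mmp14 went opposite ways, with log2 ratios of 0.81 in DMSO and -1.21 in DAB. Mmp8 was higher in Mmp13-positive than in comparison cells in both libraries, at 1056 against 692 CPM in DMSO and 1550 against 645 in DAB. Mmp9 was at 189 against 201 and 483 against 393, near its comparison level. Mmp12 was at 5705 against 1122 in DMSO and 802 against 588 in DAB. Adam8, a related metalloproteinase of the granulocyte and monocyte surface, was at 584 against 444 and 923 against 600. Timp2, an inhibitor of these enzymes, was at 56.7 against 51.5 and 118 against 60.7.

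Proliferation genes were low. All 15 that were listed lay below comparison cells in both libraries, with median log2 ratios of -1.24 in DMSO and -1.48 in DAB, 12 and 10 of them at least 2-fold lower. Of all 9057 genes, 596 (6.58%) were at least 2-fold lower in DMSO and 374 (4.13%) in DAB. Mki67, a marker of cycling cells, was at 47.5 against 113 CPM in DMSO and 24.1 against 70.6 in DAB. Counted at 3000 UMIs per cell, 6.84% of DMSO (3.0 to 13) and 2.36% of DAB Mmp13-positive cells (1.26 to 4.01) held at least 2 UMIs over 7 such genes, against 12.1% and 9.10% of comparison cells. The intervals of the 2 Mmp13-positive groups overlap. Low levels were not particular to these cells. The 15 genes summed to 1221 CPM in DMSO and 1132 in DAB, and to 2302 and 1986 in comparison cells. Ccl3/Ccl4-rich cells without Mmp13 had 1153 and 976, Mmp12-rich ones 1890 and 974, and Csf3r-positive ones 1884 and 1931.

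The second comparison asked how the Mmp13-positive cells differed between the cultures. Of 8759 genes with at least 50 UMIs in these cells, 579 (6.61%) were at least 2-fold higher and 575 (6.56%) at least 2-fold lower in DAB, and the log2 ratios had a median of 0.01. Since 75% of DAB and 25.8% of DMSO cells were S100a8/S100a9-high, such a difference holds both the mix of cells and the level within them. Each was therefore also read within the high and the low cells. The low cells still differed in mix, with 74 of 92 rich in Mmp12 in DMSO and 52 of 143 in DAB. A difference within them can therefore still hold the mix. Among S100a8/S100a9-high cells 714 of 7541 genes (9.47%) were at least 2-fold higher and 445 (5.90%) lower. These cells held 325597 UMIs in DMSO and 5582343 in DAB, so the minimum of 50 UMIs was met mainly through DAB. Of the genes read there, 78 were at 0 in 1 library. The effect of this on the counts was not tested. Among S100a8/S100a9-low cells 441 of 6272 (7.03%) were higher and 311 (4.96%) lower.

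The granulocyte list differed between these readings. Over all Mmp13-positive cells the 12 genes were each higher in DAB, 9 of them at least 2-fold, and the median log2 ratio was 1.58, while 4451 of all 8759 genes were higher. Within the S100a8/S100a9-high cells 5 were higher and 7 lower, with a median of -0.32, while 3761 of all 7541 genes were higher, and Csf3r and Hdc, the enzyme that makes histamine in basophils and granulocytes, were at least 2-fold lower. For Hdc 1 of the 32 DMSO cells held 93.8% of the UMIs, and without the highest cell of each library its ratio was 2.39, while that of Csf3r was -1.44. With each gene read in this way 6 of the 12 were higher and 6 lower, with a median of 0.00. G0s2, an inhibitor of fat breakdown that neutrophils express, and Retnlg were higher in DAB in these cells, with ratios of 1.30 and 1.76. For G0s2 1 of the 32 DMSO cells held 45.5% of the UMIs. Without the highest cell of each library the ratios were 2.08 and 2.00. Within the S100a8/S100a9-low cells, 11 of 11 genes that could be compared were higher, with a median of 2.02, while 3628 of all 6272 genes were. DMSO values were small there, and for Retnlg 82.4% of the UMIs came from 1 cell. S100a8 and S100a9, which set the division, are 2 of the 12 genes and also 2 of the 11 read in the low cells. With all high cells kept, both counted as higher, at ratios of 0.11 and 0.01. In comparison cells the median was 0.40.

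**Figure D4:**
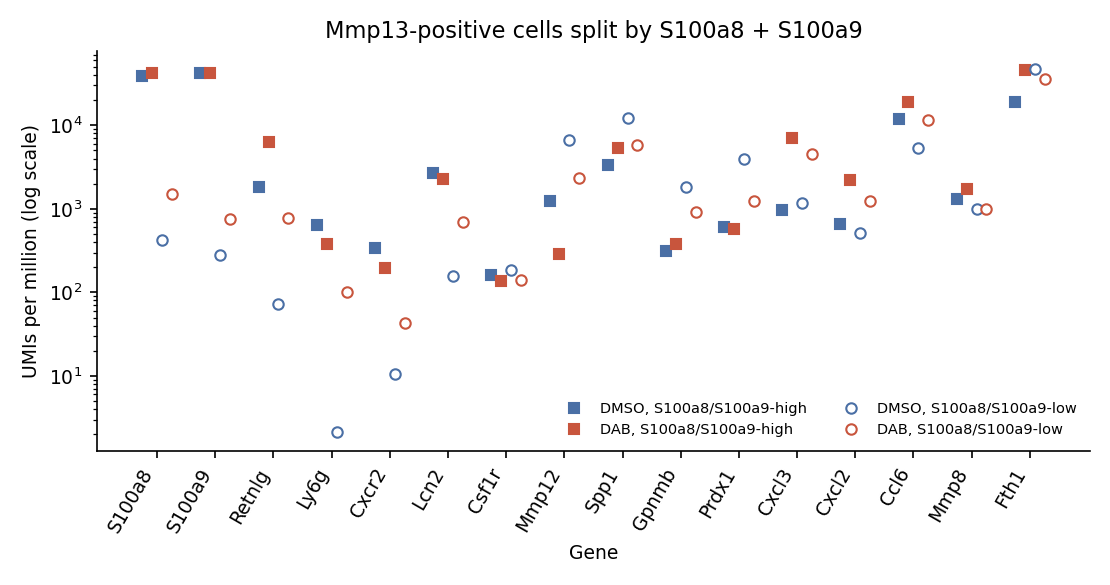
CPM (y axis, log scale) of 16 genes in Mmp13-positive cells, with squares for S100a8/S100a9-high and circles for S100a8/S100a9-low cells, blue for DMSO and red for DAB; no intervals are drawn. S100a8 and S100a9 define the groups, Cxcl3 and Cxcl2 are higher in DAB in both, and Mmp12 is lower in DAB in the low cells; in the high cells its DMSO level comes from 6 of 32 cells.

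Cxcl3 and Cxcl2 were higher in DAB on both sides of the division. In the high cells Cxcl3 was at 964 CPM in DMSO and 7131 in DAB, and in the low cells at 1180 and 4538, log2 ratios of 2.89 and 1.94. Cxcl2 was at 651 and 2224 in the high and 519 and 1248 in the low cells, ratios of 1.77 and 1.27. A single DMSO cell held 84.9% of Cxcl2 in the low cells and another 45.8% in the high ones. Without the highest cell of each library the DMSO levels were 79.7 and 370 and the ratios 3.91 and 2.57. Mmp12 was at 6725 and 2366 in the low cells. In the high cells it was at 1256 and 286, where the DMSO value came from 6 of 32 cells. Gpnmb was at 1837 and 906 in the low cells, a ratio of -1.02, or -0.94 without the highest cell of each library. In the high cells it was at 310 and 379, with 66.3% of the DMSO UMIs in 1 cell and a ratio of 1.72 without the highest cells. Fth1, at nearly the same level in both libraries over all cells, was at 19119 and 45668 in the high cells and at 47272 and 35820 in the low ones.

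Genes of the amino acid response were higher in DAB Mmp13-positive cells. This program follows the kinase GCN2 and the factor Atf4 when amino acids run short, and covers amino acid synthesis, uptake and tRNA charging. Of 34 listed genes with enough UMIs, 32 had a ratio above 0 and 18 were at least 2-fold higher, with a median log2 ratio of 1.06. Of all 8759 genes, 4451 had a ratio above 0 and 6.61% were at least 2-fold higher. The median was 0.75 in S100a8/S100a9-high and 1.10 in S100a8/S100a9-low cells. Comparison cells had a median of 1.37, with 33 of 36 above 0, beside 6549 of all 14086 genes there. The difference was thus not smaller without Mmp13.

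Atf5, a transcription factor of this response, was at 26.9 CPM in DMSO (19.8 to 35.8) and 362 in DAB (348 to 376), a log2 ratio of 3.75 against 2.54 in comparison cells. Trib3, a pseudokinase that restrains the response, was at 17.8 and 142, and Asns, asparagine synthetase, at 13.7 and 116. Stc2, a secreted glycoprotein, was at 2.29 and 66.1. Cth, which makes cysteine from cystathionine, had 0 UMIs in DMSO and 19.4 CPM in DAB, at least 11.3-fold higher when DMSO is set at 3 counts. Atf3 went the other way, at 249 and 50.4, a ratio of -2.31, and Gpt2, an alanine transaminase, was at -0.20.

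**Figure D5:**
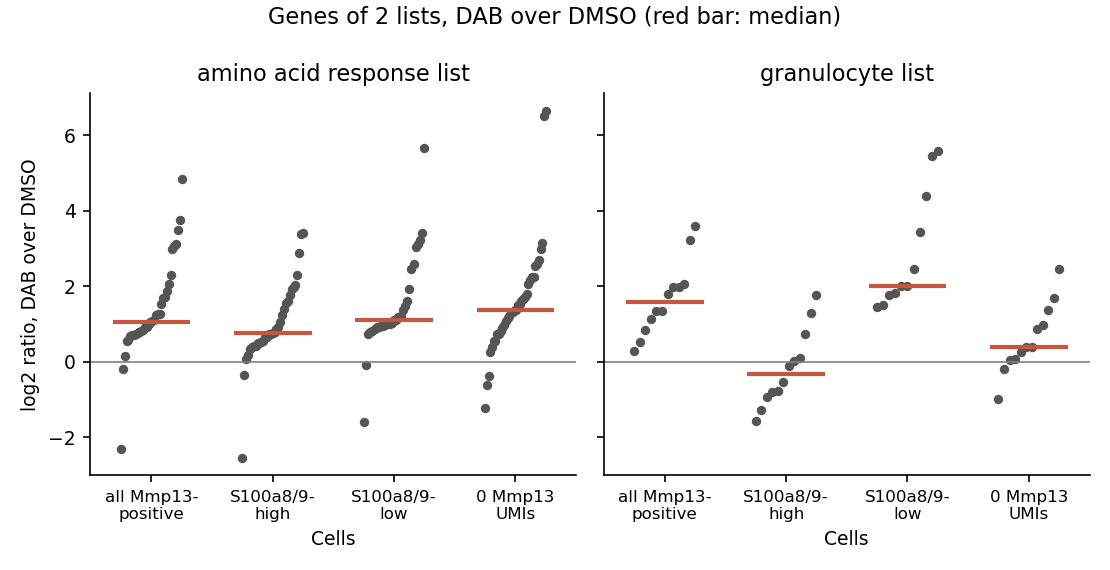
Log2 ratio of DAB over DMSO (y axis) for each gene of the amino acid response list (left) and the granulocyte list (right), in all Mmp13-positive cells, in their S100a8/S100a9-high and S100a8/S100a9-low cells and in cells with 0 Mmp13 UMIs (x axis), with the median as a red bar. The amino acid response medians lie between 0.75 and 1.37 in all 4 groups of cells, and the granulocyte medians between -0.32 and 2.02.

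The genes with the highest ratio in DAB included, in order, Adm2, Cstdc5, Stfa1, Stc2, Retnla, Igfbp6, Stfa3, Atf5 and Retnlg. Cstdc5, Stfa1 and Stfa3 belong to the stefin family of cysteine protease inhibitors of granulocytes. Cstdc5 was at 34.4 and 1254 CPM, and in comparison cells at 208 and 1467. Retnla, a resistin-like protein, was at 39.5 and 1114, with 91.3% of its DMSO UMIs in 2 cells. Igfbp6, which binds insulin-like growth factor, came from 311 DAB cells and was at 4.01 and 92.5.

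The 10 with the lowest ratio were Timp1, Prss34, Ccl17, Mcpt8, Cd36, Saa3, Dcstamp, Apbb2, Cxcl16 and Mmp14. Several were set by few DMSO cells. All DMSO UMIs of Prss34 and Mcpt8, basophil proteases, came from 2 cells each, which for Prss34 were scored as doublets, and 72.4% of those of Ccl17 from 2. The cell with 173 Mmp13 UMIs, also scored as a doublet, held 34.3% of Timp1. Cd36, a scavenger receptor for lipids, was spread over 44 DMSO cells and was at 106 and 1.35 CPM, with 13.4 and 1.15 in comparison cells. Dcstamp, a fusion protein of osteoclasts and dendritic cells, was seen in 41 cells, at 77.3 and 2.02. Mmp14, a membrane-bound activator of other metalloproteinases, was at 124 and 7.27, and in comparison cells at 70.4 and 16.9.

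Lists with other roles also differed between all cells and the 2 sides of the division. The lipid and lysosome list had a median log2 ratio of DAB over DMSO of -0.99 over all Mmp13-positive cells, 0.06 in S100a8/S100a9-high and -0.70 in S100a8/S100a9-low ones. The metalloproteinase list gave 0.55 over all cells but -0.33 in high and -0.76 in low ones. Chemoattractant receptors gave 0.68, -0.60 and 0.46. Among them Cxcr2, the receptor for Cxcl2 and Cxcl3, was at 71.6 and 157 CPM over all cells and was lower in DAB within the high ones, with a ratio of -0.79. NF-kB genes gave 0.25, -0.04 and -0.06, and the unfolded protein response -0.35, -0.10 and -0.17.

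Among the genes by which MDSC are known to restrain T cells, Nos2, nitric oxide synthase, was at 282 CPM in DMSO and 21.1 in DAB, with 128 and 12.8 in comparison cells. Cd274, which encodes PD-L1, was at 264 and 84.7, against 143 and 63.1. In DAB the suppressor list lay above comparison cells for 10 of 12 genes, with a median of 0.56, and in DMSO for 8 of 12, with 0.21, beside 3061 and 3329 of all 9057 genes. Between the libraries 5 of 12 genes of this list were higher and 7 lower in DAB, 2 of them at least 2-fold, with a median log2 ratio of -0.18, beside 4451 of all 8759 genes higher and 6.56% at least 2-fold lower.

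Markers of erythroid, B and T or NK cells were scarce. All 4 erythroid markers were at 0 in both libraries, the 6 B cell markers gave 3 UMIs in DMSO and 28 in DAB, and the 5 of T or NK cells 2 and 4. The 8 osteoclast markers summed to 368 CPM in DMSO and 93.2 in DAB, against 137 and 118 in comparison cells. Atp6v0d2, a subunit of the proton pump that macrophages also use, was the most abundant of them, and Calcr, the calcitonin receptor, was at 0 in both. The 10 monocyte markers summed to 1341 and 1613, led by Fn1 in DMSO and Ly6c2 in DAB, and the 10 macrophage markers to 1647 and 1330, led by Cd63, with Apoe at 0 in DMSO. Basophil or mast cell markers summed to 589 in DMSO, of which 2 doublet-scored cells held 95.3%, and to 49.6 in DAB. The part of these lineages in the profile was not tested.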

How the data were processed

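Droplet-based single-cell libraries of DMSO- and DAB-treated MDSC were analysed, 1 per condition. The deposited values are UMI counts per gene and barcode, which the authors made with Cell Ranger 7.0.0 on mm10 (the submitters' notes also name Seurat 4.3.0 and R 4.1.2); the counts precede the authors' own filters. The 2 libraries shared 152 barcode sequences, carried by 0 DMSO and 3 DAB Mmp13-positive cells. Barcodes under 1000 UMIs (199 DMSO, 147 DAB) or over 10% mitochondrial UMIs (35 and 70) were left out. Doublets were scored against simulated pairs (0.8% per 1000 barcodes) and kept, with removal as an alternative.

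Counts were summed per library and group and scaled to CPM by the summed UMIs of the group. Intervals are exact Poisson, exact binomial (Clopper-Pearson) or exact conditional for ratios. Cells are not replicates, so no p-value was computed; a ratio counted as called at 2-fold, with at least 50 summed UMIs and, against comparison cells, at least 5 CPM in either group. Genes at 0 in 1 group entered at the bound given by 3 counts. Shares of cells with a UMI were computed after thinning each cell to 3000 UMIs. Shallower cells were dropped, 1428 of all cells in DMSO and 1383 in DAB, among them 7 and 23 Mmp13-positive ones. The sums were tested on simulated data. Genes were named as the 5 markers, members of the gene lists, the 15 largest ratios to comparison cells (at least 50 CPM in both libraries) and the 10 largest ratios of DAB over DMSO in each direction (at least 50 CPM in either). The cells, gene lists and comparisons were chosen with earlier results of these data known. Of 325 listed genes, 322 were matched to a symbol. Some genes that the naming rule selects are not reported here. Nearest cells came from 30 principal components. Promoter sequences are from RefSeq on GRCm38.p6 and gene positions from GENCODE on the same build. Python 3.11.15, NumPy 2.4.6, SciPy 1.17.1, pandas 2.3.3, scikit-learn 1.9.0 and Matplotlib 3.10.9 were used.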

Additional observations from a re-analysis of the deposited data

Results flagged for a closer look

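Markers of 3 lineages lay on opposite sides of the comparison cells in the 2 libraries, and the difference was not tested, since there is 1 library per condition. The granulocyte list had a median log2 ratio of Mmp13-positive to comparison cells of -0.55 in DMSO and 0.79 in DAB. The osteoclast list gave 2.02 in DMSO and -1.24 in DAB, with Dcstamp at 2.09 and -1.61. The basophil or mast cell list gave 1.37 in DMSO and -2.57 in DAB, and 2 doublet-scored DMSO cells held 95.3% of its UMIs there.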

How the results depend on the processing

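No paired analysis was possible because each condition has 1 library and no p-value was computed. The share of Mmp13-positive cells depended on the rule in both libraries. It was 2.22% in DMSO and 7.79% in DAB with at least 1 Mmp13 UMI, 0.935% and 3.89% with at least 3, 1.01% and 4.04% with at least 2 per 10000, 0.610% and 2.70% after thinning to 3000 UMIs and 1.61% and 5.83% without the limits on other genes. The fold between libraries stayed between 3.5 and 4.43 under these and the remaining alternatives, which were limits at a lower setting, a minimum of 2000 UMIs, a mitochondrial share of 5% and removal of doublet-scored cells. Restricted to S100a8/S100a9-high cells, an alternative chosen after seeing the data, the shares were 0.333% and 3.77% and the fold 11.3.

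Counts of genes 2-fold apart moved with the minimum of summed UMIs, to 845 higher (8.11% of 10415 tested) and 951 lower (9.13%) at 20, and to 267 higher (5.43% of 4916) and 199 lower (4.05%) at 200. The S100a8/S100a9-low cells gave 311 lower. Scaling by the median of ratios gave 642 higher and 521 lower. Within S100a8/S100a9-high cells the amino acid response median was 0.75. Medians that changed sign there included granulocyte genes at -0.32, lipid and lysosome genes at 0.06, metalloproteinases at -0.33 and chemoattractant receptors at -0.60. That of NF-kB genes did so too, from 0.25 to -0.04. Granulocyte genes were at 0.00 there without the highest cell of each library. Within S100a8/S100a9-low cells the metalloproteinase median was -0.76 and that of NF-kB genes -0.06. The ratio of Cxcl2 in DMSO reversed to -0.27 without the 2 highest cells, also chosen after seeing the data, as was leaving out the highest cell of each library within the S100a8/S100a9-high cells, where the ratio of Hdc between libraries reversed to 2.39. The granulocyte median, 1.58, was 2.26 with at least 3 Mmp13 UMIs, 2.13 without doublet-scored cells and 1.21 with each cell scaled to its own total. The NF-kB median was 0.45 without doublet-scored cells. The cause of these changes was not tested beyond the construction of each alternative. With 124 DMSO cells, of which 32 were S100a8/S100a9-high, values in DMSO are the less precise.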
